A study of Homo sapiens with 8 samples.

Results

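Kinesins are motor proteins that use ATP to move along microtubules or to shorten them. The genes described here are the rows of the HT29 gene table whose symbol is KIF or KIFC followed by a number, with an optional trailing letter. The adaptor genes KIFAP3 and KIFBP, which share the letters but code for no motor, were left out. This rule found 41 of 38148 genes, which were placed by textbook role in a mitotic class of 13, a transport class of 17 and a class of 11 others with ciliary, signalling or mixed roles.

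HT29 is a BRAF-mutant human colorectal cancer line, and selumetinib inhibits MEK, the kinase upstream of ERK. Cells either received no drug or spent 24 h in 1 μM selumetinib. After glyoxal fixation, an antibody stain for the mitotic cyclin CCNB1 allowed negative cells to be sorted from positive ones, and poly(A) RNA was sequenced with 2 libraries in each of the 4 groups. CCNB1 accumulates in G2 and is destroyed at the end of mitosis, so the positive gate holds cells late in the cycle. The comparisons ask how kinesin RNA levels respond to MEK inhibition in each sorted fraction, how the fractions differ with and without drug, and whether the responses differ between fractions.

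For all 8 libraries the sample titles and descriptions contradict each other in both treatment and fraction. The descriptions, which are also the column names, were followed, and the check genes went with them. CCNB1 averaged 11.83 in untreated CCNB1-negative, 13.92 in untreated CCNB1-positive, 7.57 in treated CCNB1-negative and 12.65 in treated CCNB1-positive libraries, on the log2 scale of reads scaled to the largest library that is used throughout. The ERK targets DUSP6, SPRY4, ETV4 and PHLDA1 were lower under selumetinib in both fractions, with log2 fold changes from -3.10 to -1.13 among negative and from -2.34 to -1.06 among positive cells. All 10 colon epithelial markers reached the level needed for a test, as did 2 of 7 markers of other cells (CD68 and COL1A1), while CD3E and COL1A2 averaged below 1 in every group. COL1A1 had log2 fold changes of 1.81 and 2.19 under drug in the negative and positive fractions, and its part in the results was not tested. It had 19 and 6 reads in untreated CCNB1-negative and 24 and 20 in untreated CCNB1-positive libraries. These averaged below the level needed for a test in both untreated groups. COL1A1 passed through the treated groups alone, so it could only be higher there. Libraries held between 12696860 and 23916160 reads on genes. The labels do not say whether the 2 libraries of a group came from separate cultures, so p-values measure the spread between these libraries only, which may be technical.

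As background, mitotic kinesins build and focus the spindle, align chromosomes, set the length of microtubules and lay down the central spindle at which the cell divides. Many of their genes are known to be transcribed mainly in G2 and mitosis, through promoter elements read by the DREAM, B-MYB and FOXM1 complexes. Transport kinesins carry vesicles, mitochondria, endosomes and ciliary cargo along the microtubules of interphase cells, often through light chains or adaptor proteins, and dynein carries cargo the opposite way. Ciliary and signalling kinesins act at the cilium and the centriole.

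The summed level of the mitotic class differed far more between groups than that of the transport class. It was 647 and 533 reads per 1000000 reads on genes (RPM) in the 2 untreated CCNB1-negative libraries, 1670 and 1730 RPM in untreated CCNB1-positive, 100.0 and 97.0 RPM in treated CCNB1-negative, and 1370 and 1510 RPM in treated CCNB1-positive libraries. The treated CCNB1-negative libraries were the lowest, and the 4 groups did not overlap. The transport class summed to between 927 and 1030 RPM in untreated and between 1050 and 1210 RPM in treated libraries. As a share of all kinesin reads, the mitotic class took 37.0% and 33.4% in untreated CCNB1-negative libraries, 59.3% and 60.1% in untreated CCNB1-positive, 7.28% and 6.22% in treated CCNB1-negative, and 52.4% and 53.0% in treated CCNB1-positive libraries. The other kinesins summed to between 117 and 136 RPM in untreated and between 177 and 252 RPM in treated libraries. In sorted bulk samples, fewer cells that express a gene and less RNA per cell cannot be told apart.

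**Figure D1:**
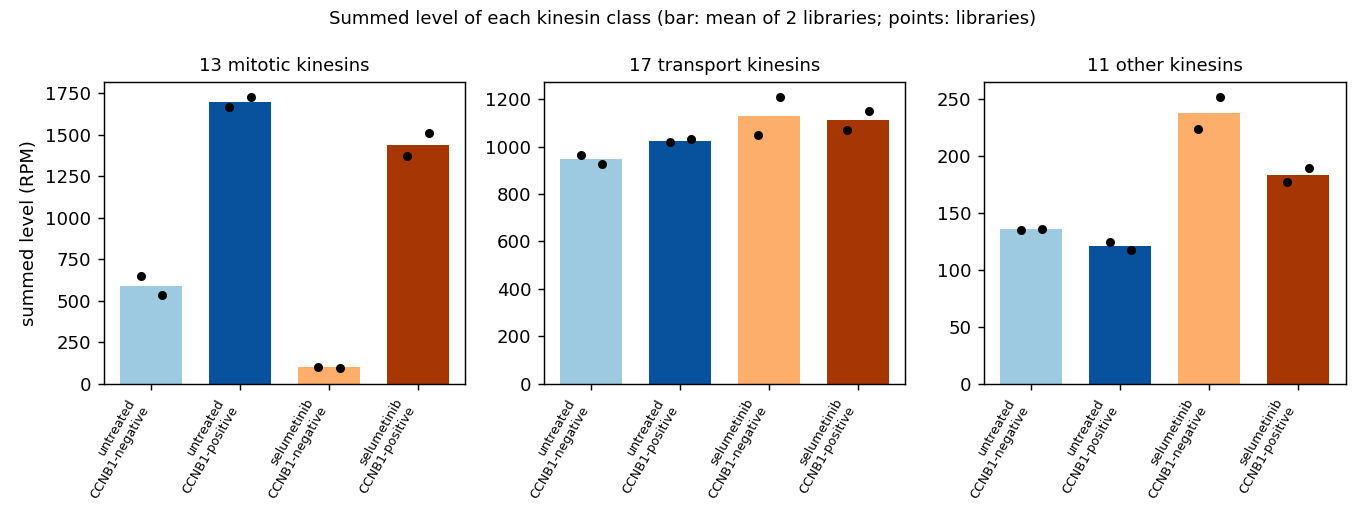
Summed level in RPM of the mitotic, transport and other kinesins in each group, with bars at the mean of 2 libraries and points for the libraries. The mitotic sum ran from 97.0 to 1730 RPM across libraries. The transport sum ran from 927 to 1030 RPM in untreated and from 1050 to 1210 RPM in treated libraries. The vertical scales differ between panels.

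Per kilobase of transcript, the chromosome-arm motor KIF22 had the highest level of all kinesins in 3 of the 4 groups. Its mean was 58.5 RPKM (RPM per kilobase of transcript) in untreated CCNB1-negative, 119 RPKM in untreated CCNB1-positive and 104 RPKM in treated CCNB1-positive cells. In treated CCNB1-negative cells it fell to 11.5 RPKM, and the highest levels there were those of KIF12 (39.1 RPKM), KIF3B (36.5 RPKM), KIF13A (34.4 RPKM) and KIF5B (32.9 RPKM), all outside the mitotic class. KIF5B, the heavy chain of conventional kinesin, was next to KIF22 in untreated CCNB1-negative cells at 43.5 RPKM and reached 50.2 RPKM in untreated and 49.6 RPKM in treated CCNB1-positive cells.

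For a test, the log2 values of the 8 libraries had to average at least 4.58, which is the log2 value of 1 RPM. This is a mean of log2 values and not of RPM. Of the 41 kinesins 32 passed, with 14219 genes in all. Those that did not were KIF2B and KIF4B of the mitotic class, KIF1A, KIF5A, KIF5C and KIF17 of the transport class, and KIF6, KIF25 and KIF26A of the others. KIF2B, a microtubule depolymerase, had 0 reads in every library. KIF4B, a retrocopy of KIF4A, had 23 and 10 reads in untreated CCNB1-negative, 63 and 50 in untreated CCNB1-positive, 1 and 0 in treated CCNB1-negative, and 26 and 15 in treated CCNB1-positive libraries. The log2 means of KIF4B and KIF4A were both lowest in treated and next lowest in untreated CCNB1-negative cells. Between untreated and treated CCNB1-positive cells, KIF4B averaged 5.88 and 4.72, whereas KIF4A averaged 11.89 and 11.88. Reads of near-identical sequence may be split between the 2 genes. The largest of the neuronal motors KIF1A, KIF5A, KIF5C and KIF17 in any library was KIF5C, with 16 reads in a treated CCNB1-negative library. KIF3C and KIF19 averaged below the limit in both untreated groups and passed through the treated groups alone. KIF23, the motor of the centralspindlin complex that organises the central spindle, is named in the table by its clone, AC027237.1, so the rule does not take it in, and its values are given apart.

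In CCNB1-negative cells the mitotic kinesins were lower under selumetinib as a class. All 11 tested members fell (adjusted p under 0.05, limma), against 35.8% of all genes tested, and their median log2 fold change was -2.85, against 0.05 over all genes. The size ran from -3.37 for KIF20A to -1.05 for KIF15. KIF20A, which brings the chromosomal passenger complex to the central spindle, read 9.57 and 9.04 in untreated and 6.20 and 5.67 in treated CCNB1-negative libraries, a 10.3-fold fall (log2 fold change -3.37 ± 0.20, SE, adjusted p = 1.1e-08). No treated library came near an untreated one. KIF2C, the centromere motor that takes microtubules apart at faulty attachments, read 10.86 and 10.26 without drug and 7.43 and 7.15 with it, a 9.62-fold fall. KIF18A, which damps the swings of chromosomes at the metaphase plate, read 9.15 and 8.85 without drug and 5.78 and 5.72 with it, a 9.52-fold fall. After the drug, KIF18A was still counted with 35 and 31 reads.

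The spindle pole motors moved alike. KIFC1, a minus-end motor that focuses poles, fell 9.38-fold, from 10.80 and 10.14 to 7.29 and 7.19. KIF11, which slides antiparallel microtubules to drive the poles apart, fell 6.81-fold, from 10.54 and 10.11 to 7.64 and 7.48. KIF15, which can hold poles apart alongside KIF11, showed the smallest fall of the class, 2.08-fold, from 9.41 and 9.36 to 8.38 and 8.28 (log2 fold change -1.05 ± 0.15, SE, adjusted p = 2.4e-05). All of these groups of libraries were apart from each other. Among the motors of chromosome arms and the central spindle, KIF4A fell 7.22-fold, KIF22 5.60-fold, KIF14 5.63-fold and KIF20B 9.91-fold. KIF18B, which limits the length of astral microtubules, fell 3.79-fold, from 9.94 and 8.95 to 7.57 and 7.48, with the widest spread between the untreated libraries of any tested mitotic kinesin. KIF23 read 11.19 and 10.69 without drug and 8.19 and 7.89 with it, a 7.46-fold fall. Some exons of these motors lie opposite other genes, 132 bases of KIF20A opposite BRD8, 561 bases of KIF22 opposite a long noncoding RNA and 424 bases of KIFC1 opposite a pseudogene, and how strand was handled is not given in the sources used here.

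The promoters of the mitotic class share letters that the rule did not use. RefSeq promoter sequences on GRCh38.p14, from 250 bases before to 50 after each start, were matched for 33 of the 41 kinesins, with none for KIF5A, KIF13B, KIF19, KIF21B, KIF26B, KIF27, KIFC2 and KIFC3. Each was searched on both strands for the cell cycle homology region (CHR), which is commonly spelled TTTGAA. Its other known spelling, TTTAAA, reads the same on both strands and was searched too. The last motif was the CCAAT box, by those letters, and none of the motifs contains another. A CHR was found in 11 of 13 mitotic kinesin genes (84.6%), in 2 of 12 transport genes (16.7%) and in 0 of 8 others. Over all 27305 genes with a promoter it was found in 27.9%, and over all 35116 promoters in 24.0%, with 15.2% for TTTGAA and 12.2% for the other spelling. The CCAAT box was found in 10 of 13 mitotic genes (76.9%), 4 of 12 transport genes (33.3%) and 3 of 8 others (37.5%), against 39.7% of all genes and 34.6% of all promoters. Both stood together in 9 of 13 mitotic genes (69.2%), 1 of 12 transport genes (KIF5B, 8.33%) and 11.2% of all genes. The mitotic genes without a CHR in this window were KIF22 and KIF2B. Promoters of 5 genes are printed 5′ to 3′ on the gene's strand with CHR and CCAAT matches in capitals, chosen after their values were seen. They are those of KIF20A (chr5:138178862-138179161, plus strand), with the largest fall, KIF4A (chrX:70289854-70290153, plus strand), with both motifs, KIF2C (chr1:44739587-44739886, plus strand), with a CHR alone, KIF24 (chr9:34329219-34329518, minus strand), a centriolar kinesin described further on, and KIF3B (chr20:32277401-32277700, plus strand), a transport kinesin.
KIF20A: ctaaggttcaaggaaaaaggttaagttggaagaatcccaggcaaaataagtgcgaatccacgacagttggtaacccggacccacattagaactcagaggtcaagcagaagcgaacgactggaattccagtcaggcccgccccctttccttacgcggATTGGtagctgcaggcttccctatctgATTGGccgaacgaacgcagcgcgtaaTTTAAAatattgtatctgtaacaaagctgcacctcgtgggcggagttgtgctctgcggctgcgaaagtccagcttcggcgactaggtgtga
KIF4A: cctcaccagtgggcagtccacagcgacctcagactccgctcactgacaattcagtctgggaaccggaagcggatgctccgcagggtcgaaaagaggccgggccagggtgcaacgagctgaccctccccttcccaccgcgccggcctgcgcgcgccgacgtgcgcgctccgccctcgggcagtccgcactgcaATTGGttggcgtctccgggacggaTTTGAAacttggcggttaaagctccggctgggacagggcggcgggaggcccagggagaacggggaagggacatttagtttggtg
KIF2C: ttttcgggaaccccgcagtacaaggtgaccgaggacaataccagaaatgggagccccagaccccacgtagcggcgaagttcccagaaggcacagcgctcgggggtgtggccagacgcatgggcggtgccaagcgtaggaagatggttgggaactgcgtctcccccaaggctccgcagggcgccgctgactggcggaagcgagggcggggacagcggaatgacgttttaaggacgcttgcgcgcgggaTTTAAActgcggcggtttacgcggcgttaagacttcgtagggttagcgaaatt
KIF24: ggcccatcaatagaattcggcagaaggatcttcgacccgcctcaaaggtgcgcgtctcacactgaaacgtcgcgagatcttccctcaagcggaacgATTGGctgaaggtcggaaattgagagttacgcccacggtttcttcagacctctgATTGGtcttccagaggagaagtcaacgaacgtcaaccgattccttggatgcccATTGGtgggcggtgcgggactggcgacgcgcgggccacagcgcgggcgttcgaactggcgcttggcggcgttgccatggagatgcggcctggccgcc
KIF3B: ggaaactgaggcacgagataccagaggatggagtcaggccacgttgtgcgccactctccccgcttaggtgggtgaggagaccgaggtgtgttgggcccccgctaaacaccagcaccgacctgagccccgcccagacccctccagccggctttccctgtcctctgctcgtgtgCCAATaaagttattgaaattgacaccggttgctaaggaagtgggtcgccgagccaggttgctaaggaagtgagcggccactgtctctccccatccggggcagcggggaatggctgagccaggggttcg
In KIF20A the CHR begins 41 bases before the start and the CCAAT boxes, on the minus strand, 67 and 94 bases before it, and in KIF4A these distances are 34 and 58 bases. In KIF2C the CHR begins 3 bases before the start and runs across it. KIF24 has 3 CCAAT boxes and no CHR, and KIF3B has 1 CCAAT box. A match describes these letters only and is not evidence of binding.

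In CCNB1-positive cells the same class showed smaller changes. Of the 11 tested mitotic kinesins, 6 were lower (27.3% of all genes tested were), 1 was higher (38.0% of all genes were) and 4 passed in neither direction, and the median log2 fold change was -0.56, against 0.17 over all genes. The largest fall was that of KIF18A, from 10.95 and 11.03 in untreated to 10.13 and 10.13 in treated libraries (log2 fold change -0.86 ± 0.16, SE, adjusted p = 4.6e-04). KIF11 fell by 0.65, KIF20A by 0.63, KIFC1 by 0.61, KIF20B by 0.57 and KIF2C by 0.56. These are all below a 2-fold change. KIF18B was the member that rose, from 11.18 and 10.90 to 11.58 and 11.81 (log2 fold change 0.66 ± 0.24, SE, adjusted p = 0.029). KIF4A, which pairs with PRC1 to set the central spindle, read 11.98 and 11.80 without drug and 11.83 and 11.93 with it, so that the groups overlapped (log2 fold change -0.01 ± 0.15, SE, adjusted p = 0.96). KIF14 (log2 fold change 0.30 ± 0.23, SE), KIF15 (-0.29 ± 0.15, SE) and KIF22 (-0.30 ± 0.15, SE) did not pass the test. KIF23 had a log2 fold change of -0.37 ± 0.18 (SE, adjusted p = 0.075). These calls were sensitive to scaling and to single libraries. With median-of-ratios scaling 8 were lower and 0 higher, with quantile normalization 2 were lower and 1 higher, and 3 calls were left without the replicate 2 library of either untreated or treated CCNB1-positive cells.

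**Figure D2:**
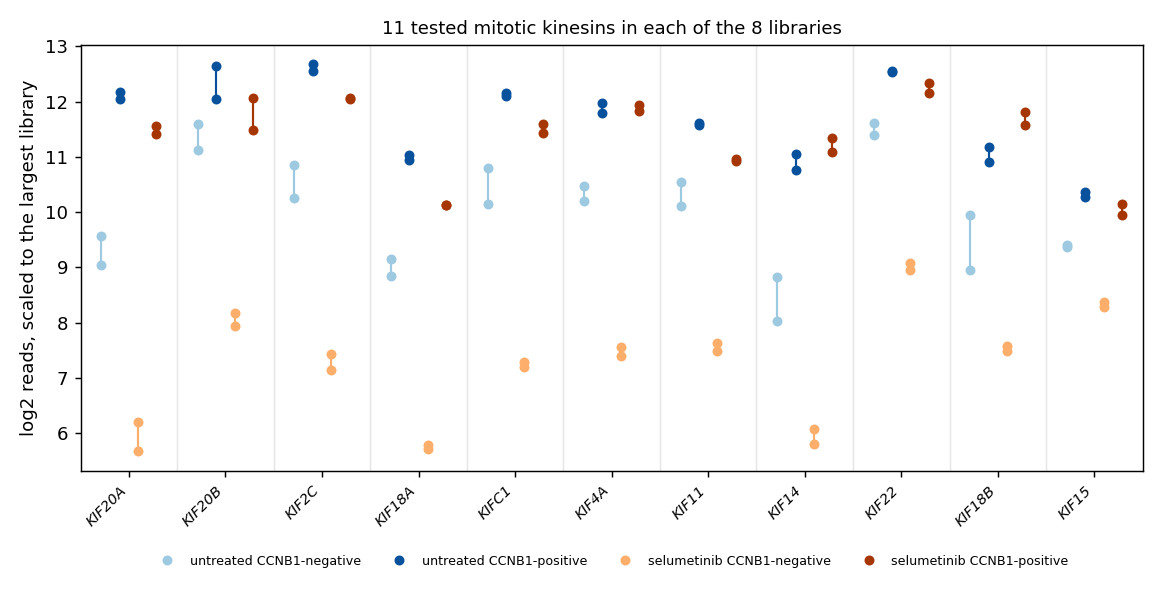
Log2 reads, scaled to the largest library, of the 11 tested mitotic kinesins, with 2 points per group joined by a line and genes ordered by their response in CCNB1-negative cells. The treated CCNB1-negative libraries are the lowest for every gene, from 5.67 for KIF20A to 9.08 for KIF22, while the treated CCNB1-positive libraries lie between 9.94 and 12.34.

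The responses of the 2 fractions were compared by their difference, CCNB1-positive minus CCNB1-negative. It passed the test above 0 for 10 of the 11 mitotic kinesins, against 4.99% of all genes, with a median of 2.62 on the log2 scale against 0.11 over all genes. KIF4A had the largest difference, 2.84 ± 0.21 (SE, adjusted p = 4.1e-06), followed by KIF14 with 2.79, KIF20A with 2.74, KIF20B with 2.74 and KIF2C with 2.70. KIF15 was the member that did not pass, with a difference of 0.77 ± 0.21 (SE, adjusted p = 0.054). In other limma fits KIF15 did pass, with quantile normalization (0.91, adjusted p = 0.02) and a filter at 10 RPM (adjusted p = 0.042). It also passed with a block for replicate number (adjusted p = 0.042) or for each pair of same-numbered fractions (adjusted p = 0.0021). KIF23, outside the rule, had a difference of 2.53 ± 0.25 (SE, adjusted p = 1.6e-05).

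Without drug, CCNB1-positive cells held more mitotic kinesin RNA than CCNB1-negative cells. All 11 members were higher, against 1.36% of all genes tested, with a median log2 difference of 1.59 against -0.06 over all genes. KIF20A had the largest difference, 7.0-fold, with 12.05 and 12.17 in positive against 9.57 and 9.04 in negative libraries. KIF14, which docks citron kinase at the midbody, followed at 5.58-fold, with 11.05 and 10.77 against 8.83 and 8.03. KIF15, at 1.92-fold, KIF20B, at 1.96-fold, and KIF22, at 2.06-fold, had the smallest differences. KIF20B, with 12.04 and 12.64 in positive against 11.13 and 11.60 in negative libraries, had an adjusted p of 0.033, and without untreated CCNB1-positive replicate 2 or untreated CCNB1-negative replicate 1 it no longer passed (adjusted p = 0.35 and 0.23).

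Under selumetinib the fractions stood further apart. Again all 11 members were higher in CCNB1-positive cells, against 13.8% of all genes, and the median log2 difference was 4.28 against 0.02 over all genes. KIF20A, with 11.56 and 11.41 in positive against 6.20 and 5.67 in negative libraries, differed 46.8-fold. KIF14, with 11.08 and 11.35 against 6.08 and 5.81, differed 38.6-fold, and KIF2C, with 12.07 and 12.05 against 7.43 and 7.15, 27.2-fold. KIF15 had the smallest difference, 3.27-fold, with 9.94 and 10.14 against 8.38 and 8.28. CCNB1 itself, the gene of the sorted protein, differed 33.8-fold between treated fractions and 4.25-fold between untreated fractions.

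Genes of proteins that work with these motors moved with them. The 8 partners listed, the KIF15 and KIF11 cofactor TPX2, the KIF4A partner PRC1, the centralspindlin subunit RACGAP1, citron kinase CIT, GTSE1, NUSAP1, HMMR and the chromosome-coat protein MKI67, were all lower in treated CCNB1-negative cells, with a median log2 fold change of -3.02, where 35.8% of all genes were lower and the median was 0.05. All 8 were higher in CCNB1-positive cells without drug, against 1.36% of all genes, and with drug, against 13.8%. In CCNB1-positive cells 5 of them fell under drug, against 27.3% of all genes, and CIT rose by 0.87, while GTSE1 (0.26) and NUSAP1 (-0.02) did not pass. CENPE, the kinetochore kinesin whose symbol falls outside the rule, read 10.02 and 9.95 without drug and 7.71 and 7.78 with it in CCNB1-negative cells, a 4.72-fold fall. In CCNB1-positive cells it read 12.16 and 12.26 without drug and 11.97 and 12.58 with it, which overlapped (log2 fold change 0.06 ± 0.18, SE, adjusted p = 0.77). STARD9, a further kinesin named otherwise, rose 2.86-fold in CCNB1-negative cells (log2 fold change 1.52 ± 0.41, SE, adjusted p = 0.0043) and read 5.52 and 4.45 against 6.08 and 5.70 in CCNB1-positive cells (log2 fold change 0.90, adjusted p = 0.069).

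The transport kinesins moved the other way in larger part. In CCNB1-negative cells 9 of the 13 tested rose under selumetinib, against 38.2% of all genes, 3 fell, against the 35.8% already given, and KIF21B passed in neither direction, while the median over the class was a log2 fold change of 0.94. In CCNB1-positive cells 8 rose and 2 fell, against 38.0% and 27.3% of all genes, with a median of 0.70. KIF3C passed the filter through the treated groups alone, and without it 8 and 7 of 12 rose. The largest rises were those of KIFC2, a C-terminal motor, and KIF3C. KIFC2 read 8.10 and 7.29 in untreated and 10.54 and 10.26 in treated CCNB1-negative libraries (6.51-fold), and 8.22 and 7.33 in untreated and 10.26 and 10.18 in treated CCNB1-positive libraries (5.44-fold). Treated and untreated libraries did not overlap in either fraction. Its exons share 791 bases with FOXH1 on the opposite strand.

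KIF3C, a kinesin-2 motor, rose from 23 and 15 reads to 78 and 85 reads in CCNB1-negative and from 20 and 11 reads to 116 and 73 reads in CCNB1-positive cells. Its log2 fold changes were 2.61 ± 0.37 and 2.98 ± 0.37 (SE), and having passed the filter through the treated groups alone it could only be higher there. The heterotrimer of the other kinesin-2 motors, which carries cargo into the cilium, was better covered. KIF3A read 8.54 and 8.69 without drug and 9.60 and 9.80 with it in CCNB1-negative cells (2.13-fold), and 8.57 and 8.87 against 9.38 and 9.83 in CCNB1-positive cells (1.85-fold). KIF3B read 11.33 and 11.30 against 12.20 and 12.29 (1.90-fold), and means of 11.29 against 11.99 in CCNB1-positive cells (1.62-fold). Their shared adaptor KIFAP3 rose by 0.88 in CCNB1-negative cells, and in the positive fraction its log2 fold change was 0.21 (adjusted p = 0.32). Treated libraries of KIF3A and KIF3B were above untreated ones in both fractions. With median-of-ratios scaling the rise of KIF3B in CCNB1-positive cells no longer passed (log2 fold change 0.36, adjusted p = 0.052).

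The kinesin-3 motors of endosomes and vesicles rose as well. KIF13A, which moves recycling endosomes, read 11.02 and 10.95 without drug and 11.90 and 12.32 with it in CCNB1-negative cells (2.19-fold), and rose 1.53-fold in CCNB1-positive cells. KIF13B rose 2.23-fold and 1.65-fold, KIF16B, which binds early endosomes, 2.40-fold and 2.04-fold, and KIF1B, a carrier of mitochondria and vesicles, 1.91-fold and 1.71-fold, in CCNB1-negative and CCNB1-positive cells. Exons of KIF13B share 585 and 279 bases with long noncoding RNAs on the opposite strand. With median-of-ratios scaling the rises of KIF13A (0.28, adjusted p = 0.17) and KIF13B (0.38, adjusted p = 0.073) in CCNB1-positive cells no longer passed, nor did they without untreated CCNB1-positive replicate 2 (adjusted p = 0.06 and 0.067), and KIF13A did not pass without treated CCNB1-positive replicate 2 (adjusted p = 0.063). The kinesin-3 member KIF1C went the opposite way. It read 12.52 and 12.24 without drug and 11.18 and 10.70 with it in CCNB1-negative cells, a 2.71-fold fall, and 12.74 and 12.65 against 11.77 and 11.34 in CCNB1-positive cells, a 2.20-fold fall.

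KIF5B and KIF21A, abundant in untreated cells, also fell in CCNB1-negative cells. KIF5B read 12.44 and 12.70 without drug and 11.90 and 12.15 with it (log2 fold change -0.54 ± 0.17, SE, adjusted p = 0.011). In CCNB1-positive cells it read 12.65 and 12.92 against 12.51 and 12.81, which overlapped (-0.12 ± 0.17, SE, adjusted p = 0.55). The call in CCNB1-negative cells was lost with quantile normalization (log2 fold change -0.21, adjusted p = 0.25) and without untreated CCNB1-negative replicate 2 or treated CCNB1-negative replicate 1 (adjusted p = 0.10 and 0.074). KIF21A, which restrains microtubule growth, fell 1.79-fold in CCNB1-negative and 1.37-fold in CCNB1-positive cells. The CCNB1-positive call was lost with quantile normalization (log2 fold change -0.24, adjusted p = 0.19), a pseudocount of 0.5 RPM (0.059) and limma-voom (0.061), and without either untreated CCNB1-positive library or treated CCNB1-positive replicate 1 (adjusted p from 0.065 to 0.14). With median-of-ratios scaling, 5 transport kinesins rose and 4 fell in CCNB1-positive cells in place of 8 and 2, KIF5B and KIFC3 being the added falls and KIF3B, KIF13A and KIF13B the lost rises.

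**Figure D3:**
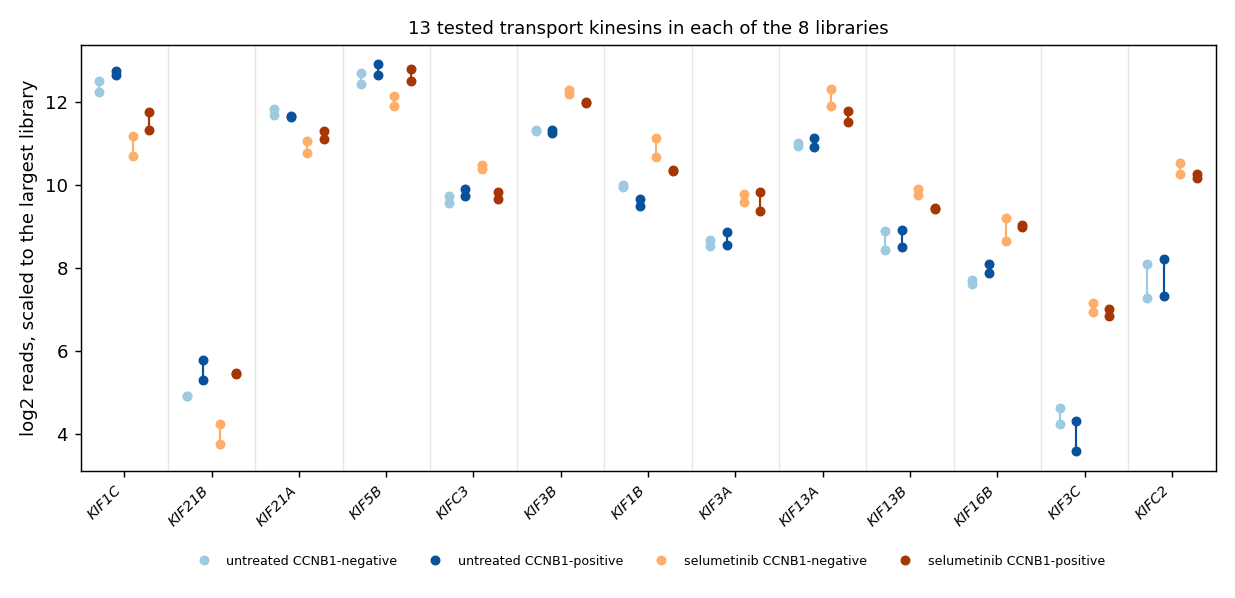
Log2 reads, scaled to the largest library, of the 13 tested transport kinesins, with 2 points per group joined by a line and genes ordered by their response in CCNB1-negative cells. Treated libraries lie below untreated ones in both fractions for KIF1C, at 10.70 to 11.77 against 12.24 to 12.74, and above them for KIFC2, at 10.18 to 10.54 against 7.29 to 8.22.

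The log2 differences of transport kinesins, CCNB1-positive minus CCNB1-negative, had medians of 0.08 without and -0.12 with drug, and the number that passed depended on the fit. Without drug, 0 of 13 passed in either direction by limma and 0 by limma-voom, and 1, KIF1B, had an unadjusted p under 0.05 with each. Of all genes, 1.36% stood higher and 1.51% lower in the positive fraction. Under selumetinib, KIF1C (0.61), KIF5B (0.63) and KIF21B (1.48) were higher in CCNB1-positive cells and KIF1B (-0.57) and KIFC3 (-0.69) lower, against 13.8% and 7.87% of all genes. For KIF21B, only 12 and 8 reads were counted in treated negative cells. With quantile normalization 3 were higher and 4 lower, and the number that passed fell from 5 to 1 without treated CCNB1-positive replicate 1 and to 2 without treated CCNB1-positive or CCNB1-negative replicate 2. With a block for each pair of same-numbered fractions, 2 passed without drug in place of 0, 1 higher (KIF1C) and 1 lower (KIF1B). Under drug 9 passed in place of 5, 4 higher and 5 lower. The share of all genes that passed with this block was not counted, so these counts stand without that comparison.

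KIFC3, a minus-end motor found at adherens junctions, was the only transport kinesin of 13 whose response differed between the fractions in the fit without a block, and with the pair block KIF5B, KIF13A and KIF21A passed too. It read 9.75 and 9.57 without drug and 10.39 and 10.49 with it in CCNB1-negative cells, and 9.91 and 9.73 against 9.66 and 9.84 in CCNB1-positive cells. The rise was thus seen in CCNB1-negative cells, and the CCNB1-positive groups overlapped. The difference of responses was -0.85 ± 0.21 (SE, adjusted p = 0.035), where 0.345% of all genes had a lower response in CCNB1-positive cells. It no longer passed without any of 6 of the 8 libraries, with adjusted p from 0.059 to 0.17. The other two, whose removal kept the call, were untreated CCNB1-negative replicate 1 and treated CCNB1-negative replicate 1.

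The cargo partners and the opposing motor gave a background for these changes. Of the 15 tested transport partners (17 listed), 7 rose and 2 fell in CCNB1-negative cells, against 38.2% and 35.8% of all genes, and 5 rose and 1 fell in CCNB1-positive cells, against 38.0% and 27.3%. The rises in both fractions include FEZ1, whose means in untreated CCNB1-negative (4.08) and CCNB1-positive (3.97) cells were below the limit for a test. It passed the filter through the treated groups alone and could only be higher there. The light chain KLC4 rose by 1.60 and 1.49, and the adaptors MAPK8IP3 (1.77 and 1.31) and TRAK1 (1.18 and 1.14), which links kinesin to mitochondria, rose in both fractions. KLC2 fell by 0.76 and 0.77, and KIFBP, which binds and blocks several kinesins, fell by 1.04 in CCNB1-negative cells alone by this threshold. Of 21 dynein and dynactin genes 12 fell and 2 rose in CCNB1-negative cells, against 35.8% and 38.2% of all genes, and 9 fell and 2 rose in CCNB1-positive cells, against 27.3% and 38.0%. Their medians were -0.47 and -0.27. DYNLT3 (-1.70 and -1.25) and DYNLL2 (-1.57 and -0.84) had the largest falls in CCNB1-negative cells, and the heavy chain DYNC1H1 fell by 0.67 and 0.47. Without drug, 1 of the 21 dynein and dynactin genes was higher in CCNB1-positive cells, against 1.36% of all genes. It was NDE1 (1.57), a dynein regulator at centrosomes and kinetochores. Under drug 4 of 21 were higher in CCNB1-positive cells, against 13.8% of all genes. They were NDE1 (1.91), DYNLL1 (0.94), DCTN3 (0.69) and DYNLL2 (0.67).

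The class of other kinesins held the largest rises of the whole superfamily. Of 8 tested, 5 rose and 3 fell in CCNB1-negative cells, against 38.2% and 35.8% of all genes, and 5 rose and 1 fell in CCNB1-positive cells, against 38.0% and 27.3%. Without KIF19, which passed the filter through the treated groups alone, 4 of 7 rose in each fraction. KIF12, an epithelial kinesin known from kidney and bile ducts, read 8.40 and 7.86 without drug and 10.99 and 10.74 with it in CCNB1-negative cells (6.65-fold), and 8.14 and 7.57 against 10.20 and 10.18 in CCNB1-positive cells (5.04-fold). KIF26B read 6.02 and 4.86 against 8.69 and 9.17 (log2 fold change 3.49) and 5.46 and 3.83 against 7.98 and 7.96 (3.32), with a spread of more than 1 between untreated replicates. Treated libraries were above untreated ones in all of these comparisons.

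KIF19, a motor that shortens motile cilia, had 11 and 10 reads in untreated CCNB1-negative libraries, 0 and 4 in untreated CCNB1-positive, 135 and 207 in treated CCNB1-negative and 85 and 59 in treated CCNB1-positive libraries. The treated libraries were 22.3-fold higher in CCNB1-negative cells, and since KIF19 passed the filter through them alone it could only be higher there. In CCNB1-positive cells no fold is given, since it depends on the value set for the library without a read. It was also called lower in untreated CCNB1-positive than CCNB1-negative cells (-2.63, adjusted p = 0.032), and with a pseudocount of 0.5 RPM this difference was -0.79 (adjusted p = 0.23). KIF27, a relative of the Hedgehog regulator KIF7, rose 3.09-fold and 3.20-fold. KIF7 itself rose 2.14-fold in CCNB1-negative cells and among positive cells its log2 fold change was 0.55 (adjusted p = 0.10). KIF7 shares 589 exon bases with TICRR on the opposite strand, and KIF27 shares 596 and 503 with long noncoding RNAs there.

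Without a block, KIF24 was the only tested non-mitotic kinesin that passed for a more positive response in CCNB1-positive cells. With the pair block in limma, KIF5B (0.42, adjusted p = 0.024) and KIF21A (0.39, adjusted p = 0.035) passed in this direction too. KIF24 works at the centriole, where it holds back the growth of a cilium. It read 8.39 and 7.94 without drug and 6.69 and 7.07 with it in CCNB1-negative cells (log2 fold change -1.28 ± 0.23, SE, adjusted p = 1.9e-04), and 8.44 and 8.0 against 8.87 and 9.15 in CCNB1-positive cells (0.79 ± 0.23, SE, adjusted p = 0.0088). Treated libraries lay below untreated ones in the negative and above them in the positive fraction, with no overlap in either. The rise no longer passed with quantile normalization (0.48, adjusted p = 0.096) or median-of-ratios scaling (0.44, adjusted p = 0.085), nor without untreated or treated CCNB1-positive replicate 2 (adjusted p = 0.10 and 0.08). The difference of responses was 2.07 ± 0.33 (SE, adjusted p = 0.0011). Without drug the fractions overlapped (0.06 ± 0.23, SE, adjusted p = 0.96), unlike the 11 mitotic kinesins, and under drug KIF24 was 4.37-fold higher in CCNB1-positive cells.

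KIF9, a motor of motile cilia, fell by 0.58 and 0.62 in the CCNB1-negative and CCNB1-positive fractions, and each call was lost without 1 of 2 libraries, untreated CCNB1-negative replicate 2 or treated CCNB1-negative replicate 1 (adjusted p = 0.11 and 0.052), and untreated CCNB1-positive replicate 2 or treated CCNB1-positive replicate 1 (adjusted p = 0.085 and 0.13). KIF2A, a microtubule depolymerase that acts at spindle poles and in interphase cells, had log2 fold changes of -0.44 ± 0.16 (SE, adjusted p = 0.021) in CCNB1-negative and -0.33 ± 0.16 (SE, adjusted p = 0.078) in CCNB1-positive cells, where with median-of-ratios scaling it also passed as lower (-0.67). Its call in CCNB1-negative cells was lost with quantile normalization (adjusted p = 0.11), a pseudocount of 0.5 RPM (0.10) and limma-voom (0.099), and without untreated CCNB1-negative replicate 2 or treated CCNB1-negative replicate 1 (0.15 for each). It shares a family and an activity with KIF2C, yet its log2 difference between fractions was -0.08 ± 0.16 (SE) without drug and 0.03 ± 0.16 (SE) with it, against 2.06 and 4.77 for KIF2C. KIF2A shares 2446 exon bases with DIMT1 on the opposite strand, so its level is uncertain. KIF9 shares 870 exon bases with KIF9-AS1 and 178 with KLHL18, also on the opposite strand, so the same holds for it. Between treated fractions, KIF27 (-0.84) and KIF12 (-0.67) were lower in CCNB1-positive cells. Neither passed without a filter (adjusted p = 0.058 and 0.09), KIF12 did not pass without any 1 of the 4 treated libraries (0.10 to 0.15), and KIF27 did not without 3 of them, all but treated CCNB1-negative replicate 1 (0.057 to 0.23).

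**Figure D4:**
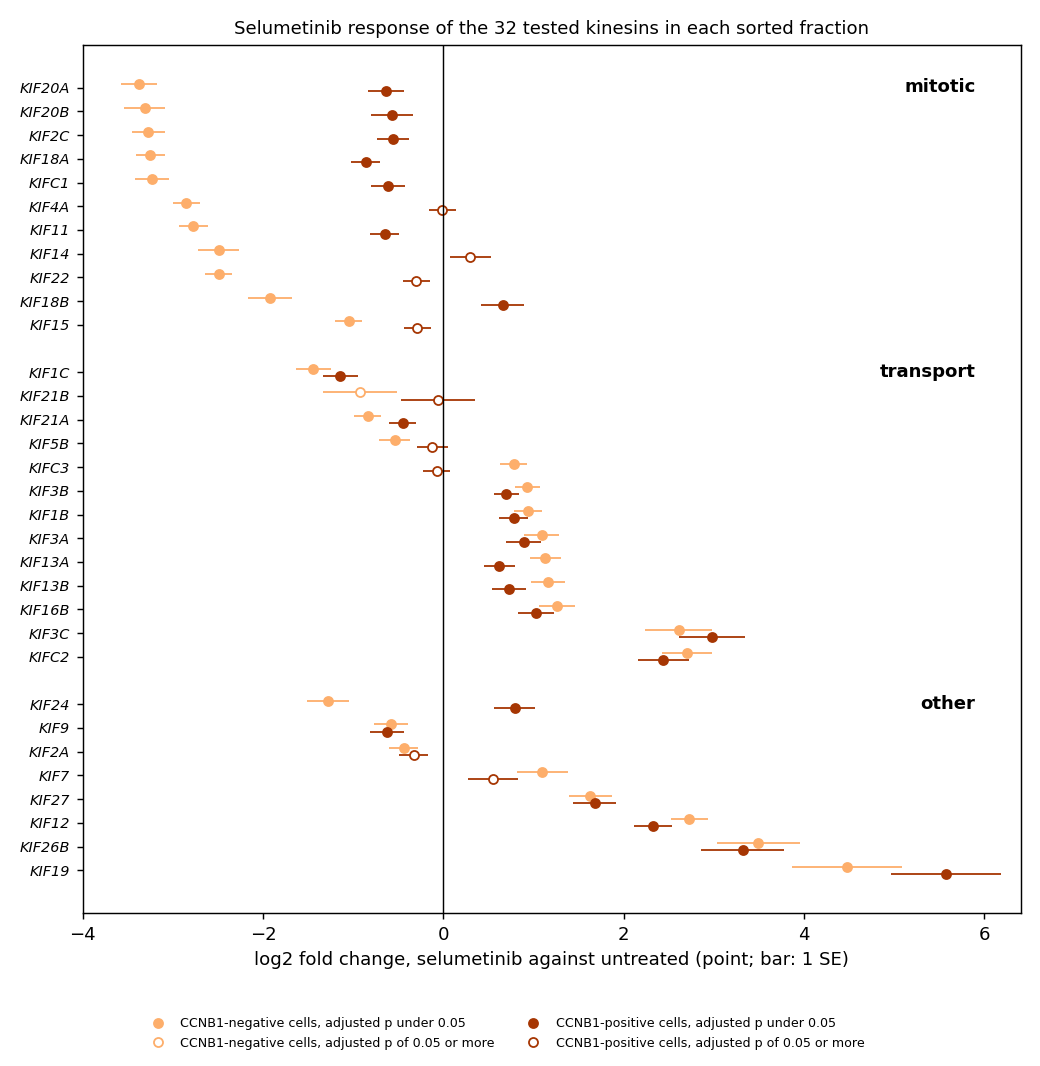
Log2 fold change of selumetinib against untreated cells for the 32 tested kinesins, in CCNB1-negative and CCNB1-positive cells, with bars of 1 SE and filled points for an adjusted p under 0.05. Mitotic kinesins lie between -3.37 and -1.05 in CCNB1-negative and between -0.86 and 0.66 in CCNB1-positive cells, KIF24 lies on opposite sides of 0, and KIFC3 is above 0 in CCNB1-negative cells alone (0.78 against -0.07).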

How the data were processed

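Messenger RNA of sorted HT29 cells was sequenced from directional poly(A) libraries, 2 in each of 4 groups. Per the submitters' processing notes and the methods, the authors used Trim Galore 0.5.0 for trimming, HISAT2 2.1.0 for mapping (GRCh38) and SeqMonk for gene values normalized to total read count. The deposited values are log2 reads, each library scaled to the largest, and a gene with no read is set as if it had 0.9 reads. Annotation release, exon rule and strand handling are not given in the sources used here. Undoing the scaling gave whole numbers for 100% of detected genes in every library, within 0.01 reads or, above 1000 reads, 0.001%, and thereby the read counts, RPM and, with Ensembl canonical transcript lengths of GENCODE 44, RPKM. All 8 value columns were used and 0 others.

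Groups follow the descriptions, and the growth medium also differs between labels and methods. Genes whose log2 values averaged 4.58 or more, the log2 value of 1 RPM, were fitted with limma 3.58.1 and a mean-variance trend in R 4.3.3. The fit took all 8 libraries with 1 coefficient per group, with Benjamini-Hochberg adjustment over all 14219 genes and a threshold of 0.05. The script was tested on simulated data. Every kinesin of the rule was named, with partner genes and checks from lists. Members and lists were chosen with earlier results of these data known. Shared exon bases come from GENCODE 44. Replicates differed beyond sampling noise, with a chi-square per gene of 15.56 to 30.18 within groups. Reads carry no molecular identifiers, so counts cover counting error only. Alternatives covered scaling, filters, pseudocount, thresholds, blocks, limma-voom and leaving out each library.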

Additional observations from a re-analysis of the deposited data

Results flagged for a closer look

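For 12 of the 32 tested kinesins and for KIF23, the fractions differed in drug response (limma without a block, adjusted p under 0.05). Of all genes tested, 4.99% had a higher and 0.345% a lower response in CCNB1-positive cells. The differences, CCNB1-positive minus CCNB1-negative on the log2 scale, were 2.70 for KIF2C, 2.84 for KIF4A, 2.11 for KIF11, 2.79 for KIF14, 2.39 for KIF18A, 2.58 for KIF18B, 2.74 for KIF20A, 2.74 for KIF20B, 2.18 for KIF22, 2.62 for KIFC1 and 2.53 for KIF23. Outside the mitotic class they were 2.07 for KIF24 and -0.85 for KIFC3. Groups of 2 libraries were too small to look for a single library that stands apart.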

How the results depend on the processing

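With 2 libraries per group each spread is estimated poorly, and 1 library can decide a call near the threshold. Of 101 calls on single genes none was reversed under any alternative, and between 70 (a 2-fold change required) and 101 (the replicate block) were kept where all 101 could be tested. The counts of mitotic kinesins that changed in CCNB1-negative cells, differed between fractions or differed in response moved by less than 1.5 times throughout. The mitotic count in CCNB1-positive cells, 7, was 2 at an adjusted p under 0.01, 0 with a 2-fold change required, 3 with quantile normalization, and 3 to 7 on leaving out 1 library. The transport counts with a 2-fold change required were 7 in place of 12 in CCNB1-negative and 4 in place of 10 in CCNB1-positive cells. The transport count between treated fractions, 5, was 1 at an adjusted p under 0.01, with a 2-fold change required and without a filter, and 1 to 5 on leaving out 1 library. The transport count for the difference of responses, 1, was 0 under the same 3 settings and 0 to 2 on leaving out 1 library. Scaling moved the median of all genes, which was 0.05 and 0.17 for the responses in CCNB1-negative and CCNB1-positive cells, to -0.21 and -0.18 with median-of-ratios factors, -0.08 and -0.07 with quantile normalization, and 0.19 and 0.27 with limma-voom. Same-numbered libraries deviated together between the fractions of 1 treatment (correlation 0.35 untreated, 0.43 treated) and not between treatments (-0.09 to 0.08). The main fit had no block for such pairs, so its tests between fractions and of the difference of responses leave that pairing out. With the replicate block the mitotic counts for the responses of the negative and positive fraction were 11 and 7, and the transport counts 13 and 10. With a block for each pair of fractions the transport count was 2 between untreated fractions in place of 0. It was 9 between treated fractions and 4 for the difference of responses. The share of all genes that passed with this block was not counted. The cause of these changes was not tested.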
